A study of Rattus norvegicus with 9 samples.

Results

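The aryl hydrocarbon receptor (AHR) genes described here are 10 of the 22077 intact genes of the deposited rat table, found by their symbols. They are the receptor gene Ahr, its DNA-binding partner Arnt, its repressor Ahrr, and the target genes Tiparp, Nqo1, Cyp1a1, Cyp1b1, Cyp2s1, Scin and Slc7a5. The series is about AHR in pulmonary arterial hypertension and profiled blood mononuclear cells (PBMC) of wild-type Sprague-Dawley rats by RNA sequencing. The 3 groups of 3 libraries each were rats kept in normoxia at day 0, Sugen-Hypoxia (SuHx) rats at day 28, and SuHx rats at day 56. SuHx combines a VEGF receptor inhibitor with low oxygen and gives a severe form of pulmonary hypertension in rats. The labels give neither age nor sex. Controls exist at day 0 alone, and time, age and treatment therefore cannot be told apart. Whether the 3 libraries of a group came from different rats is not in the labels. The p-values thus measure only how these samples vary, and that variation may be technical. In whole PBMC RNA, fewer cells of a type and less RNA per cell cannot be told apart.

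AHR is a transcription factor of the bHLH-PAS family that waits in the cytosol in a complex with HSP90. A ligand, such as a dioxin, a dietary indole or a tryptophan breakdown product, sends it to the nucleus. There it pairs with ARNT and binds DNA at sites with the core GCGTG. ARNT is also the partner of the hypoxia-inducible factors, whose sites can share those letters. The classical targets are the cytochrome P450 genes Cyp1a1 and Cyp1b1. AHRR competes with AHR for ARNT, and TIPARP modifies AHR with ADP-ribose, so that both act as brakes induced by the receptor itself. In blood, AHR is known for its roles in T helper cells, B cells, dendritic cells and monocytes.

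The promoters of the 5 genes that passed the test in exon reads are shown because the AHR core can be looked for in them. RefSeq gave the window of 250 bases before to 50 bases after the gene start for 9 of the 10 genes, on the GRCr8 build. The genes Ahrr (chr1:30821969-30822268, plus strand), Nqo1 (chr19:52220218-52220517, minus strand), Cyp2s1 (chr1:90453024-90453323, minus strand), Scin (chr6:62915238-62915537, minus strand) and Slc7a5 (chr19:66872363-66872662, minus strand) are written 5′ to 3′ on the strand of the gene. Capitals mark GCGTG or its reverse complement CACGC.
Ahrr: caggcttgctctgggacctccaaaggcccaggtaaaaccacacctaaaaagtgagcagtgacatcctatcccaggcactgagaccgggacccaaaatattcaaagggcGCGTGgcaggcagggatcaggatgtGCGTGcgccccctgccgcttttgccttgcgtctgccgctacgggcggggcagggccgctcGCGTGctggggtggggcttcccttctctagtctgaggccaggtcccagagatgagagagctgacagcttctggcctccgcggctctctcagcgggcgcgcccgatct
Nqo1: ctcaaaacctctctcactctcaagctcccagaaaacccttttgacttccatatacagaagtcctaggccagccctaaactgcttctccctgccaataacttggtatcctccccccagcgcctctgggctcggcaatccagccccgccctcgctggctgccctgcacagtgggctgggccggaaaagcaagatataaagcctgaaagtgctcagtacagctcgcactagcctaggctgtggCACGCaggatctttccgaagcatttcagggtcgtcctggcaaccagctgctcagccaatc
Cyp2s1: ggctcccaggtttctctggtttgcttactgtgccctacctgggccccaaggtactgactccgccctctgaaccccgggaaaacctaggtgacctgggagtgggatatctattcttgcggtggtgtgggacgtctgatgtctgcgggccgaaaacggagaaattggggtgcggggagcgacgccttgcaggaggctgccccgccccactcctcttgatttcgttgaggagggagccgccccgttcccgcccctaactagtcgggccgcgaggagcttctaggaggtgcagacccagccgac
Scin: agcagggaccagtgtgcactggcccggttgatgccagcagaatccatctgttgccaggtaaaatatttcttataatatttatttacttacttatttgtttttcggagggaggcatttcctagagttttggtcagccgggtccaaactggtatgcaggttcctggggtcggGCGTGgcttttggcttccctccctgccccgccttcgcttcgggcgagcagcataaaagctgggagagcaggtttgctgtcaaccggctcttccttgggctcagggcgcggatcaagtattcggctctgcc
Slc7a5: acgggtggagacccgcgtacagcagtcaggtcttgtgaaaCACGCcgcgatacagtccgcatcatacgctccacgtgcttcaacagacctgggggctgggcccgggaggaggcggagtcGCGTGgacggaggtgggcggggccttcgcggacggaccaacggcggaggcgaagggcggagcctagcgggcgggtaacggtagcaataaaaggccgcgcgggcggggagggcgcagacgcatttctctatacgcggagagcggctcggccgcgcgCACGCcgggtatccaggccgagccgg

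In these windows GCGTG, searched on both strands, was present in 7 of the 9 genes, against 29.7% of the 33469 rat promoters of the same length. Ahrr held 3 copies, at bases -142, -117 and -57 relative to the gene start. Slc7a5 held 3 copies as well, at -210, -131 and 24. Nqo1 held 1 copy at -10, Scin 1 copy at -80, Arnt and Tiparp 1 copy each, and Cyp1b1 2 copies. Ahr and Cyp2s1 held none, which says only that these letters were not in this window. At least 3 copies were found in 3.59% of all promoters. The antioxidant core TGACNNNGC, the motif of NRF2, was found in Arnt and Cyp2s1 and in 12.1% of all promoters. The 9 genes were chosen as AHR genes, and the other promoters were not matched to them for G and C content. The shares are therefore not a test of enrichment. A match of letters is a description and was not tested for binding.

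The libraries held 22148400 to 39947430 exon reads, and 1527340 to 7340467 intron reads. Of 5 defining markers of mononuclear cells, 4 were found by their symbols and were present in every group. Cd79a of B cells was not found. Ptprc, the leukocyte antigen CD45, averaged 1731, 1766 and 1497 CPM (exon read counts scaled to a common library size) in normoxia, at day 28 and at day 56. Cd3e of T cells averaged 261, 198 and 238 CPM, Lyz2 of monocytes 2499, 4759 and 1569 CPM, and Cd14 of monocytes 6.07, 32.7 and 7.55 CPM in the same order. RNA of other blood cells moved with the groups. The 5 most-read globin genes took 49.5% ± 6.65 of exon reads in normoxia, 11.7% ± 15.01 at day 28 and 42.7% ± 2.01 at day 56 (SD, n = 3 each). Summed platelet markers (6 genes) ranged over 630 to 3086 CPM in normoxia, 499 to 789 CPM at day 28 and 1780 to 3633 CPM at day 56. Summed monocyte markers (6 genes measured) ranged over 1987 to 4243 CPM in normoxia, 3066 to 10139 CPM at day 28 and 1573 to 2511 CPM at day 56. Intron reads made up 8.86% ± 5.02, 20.2% ± 5.45 and 14.3% ± 2.48 of gene reads (SD, n = 3 each) in normoxia, at day 28 and at day 56. In a principal component analysis, normoxia replicates 2 and 3 lay apart from the other 7 libraries on the first component. Summed B cell markers (5 genes measured) ranged over 865 to 1433 CPM in normoxia, 464 to 904 CPM at day 28 and 419 to 687 CPM at day 56, and T helper 17 markers (4 genes) over 13.8 to 22.5, 5.72 to 16.0 and 5.26 to 6.83 CPM. Summed neutrophil markers (6 genes) ranged over 44.5 to 95.3 CPM in normoxia, 99.9 to 270.1 CPM at day 28 and 67.5 to 104.5 CPM at day 56. Summed NK and cytotoxic markers (5 genes) ranged over 300.2 to 494 CPM in normoxia, 178 to 378 CPM at day 28 and 484 to 619 CPM at day 56. For these markers, as for the platelet markers, day 56 lay above day 28 without overlap and overlapped normoxia. Summed endothelial markers (3 genes measured) ranged over 4.09 to 6.81, 4.98 to 9.17 and 7.09 to 7.71 CPM in time order. The part of the marker shifts in the results on the AHR genes was not tested. The intron and globin shares were entered as covariates, with the values given beside the results.

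Ahrr, the AHR repressor, had no exon read in any normoxia library and was read in all 6 SuHx libraries. At day 28 the 3 libraries had 246, 179 and 110 exon reads, and at day 56 they had 86, 133 and 118. In CPM scaled by the TMM factors of edgeR, that was 6.54, 4.54 and 3.52 at day 28 and 3.21, 5.59 and 3.95 at day 56. The SuHx libraries overlapped between the days, and none came near the normoxia libraries. Set against a limit of 3 reads over the whole normoxia group, which is 0.0450 CPM, the mean level was at least 108-fold higher at day 28, and at day 56 at least 94.4-fold higher. Both differences passed edgeR's quasi-likelihood test, with adjusted p = 0.00609 at day 28 and 0.00161 at day 56. At day 56 the call held in all 19 alternative fits. At day 28 it held without any 1 library, and ended with only the 2 groups compared (adjusted p = 0.0832), with the intron share as a covariate (0.102) and with the globin share as a covariate (0.0659). The gene lies at chromosome 1, 31603296 to 31698329, on the rn6 build of the deposited file, with 11 exons.

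Junction and intron reads of Ahrr were high in the same 6 libraries. Reads that span an exon-exon junction numbered 0 in each normoxia library, 54, 35 and 27 at day 28, and 25, 34 and 24 at day 56. Intron reads numbered 1, 0 and 2 in normoxia, 144, 97 and 61 at day 28, and 44, 52 and 31 at day 56. The ratio of intron reads to normoxia, scaled by library, was 41.3 at day 28 (exact 95% counting interval 13.99 to 201) and 23.7 at day 56 (7.94 to 117). Intervals cover counting error only. Both intron differences passed edgeR's quasi-likelihood test (adjusted p = 0.0161 at day 28 and 0.00491 at day 56). The day 28 call ended without normoxia replicate 2 (adjusted p = 0.0528) and without day 28 replicate 1 (0.0779). Between the days, Ahrr exon reads differed by -0.20 (SE 0.33) on the log2 scale for day 56 over day 28, adjusted p = 0.819 by edgeR's quasi-likelihood test.

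**Figure D1:**
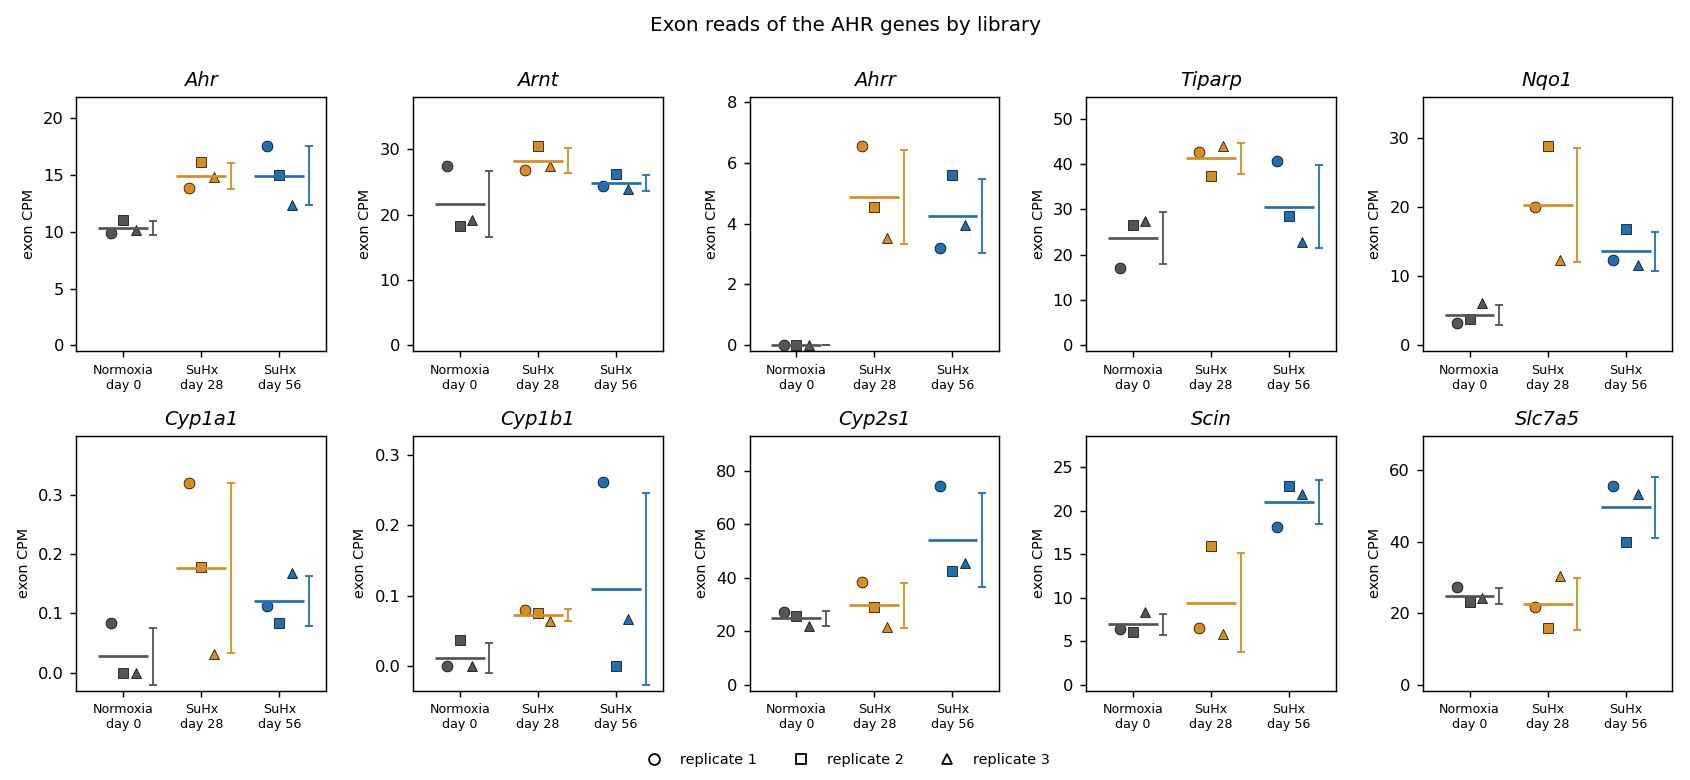
Exon CPM (y axis, TMM-scaled) of each AHR gene in each library, by group and day (x axis). Symbols mark replicates, horizontal lines the group means and the bars beside them ± 1 SD (n = 3). Ahrr sits at 0 in all 3 normoxia libraries and between 3.21 and 6.54 CPM in the SuHx libraries.

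Ahr itself was higher in every SuHx library than in any normoxia library, by a small amount that did not pass the test in exon reads. It had 9.91, 11.04 and 10.1 CPM in normoxia, 13.9, 16.1 and 14.9 CPM at day 28, and 17.5, 15.002 and 12.3 CPM at day 56. The log2 fold change was 0.53 (SE 0.17) at day 28 and 0.53 (SE 0.17) at day 56, with adjusted p = 0.111 and 0.0840 by edgeR's quasi-likelihood test. Both SuHx groups lay above normoxia without overlap, and they overlapped each other. DESeq2 called Ahr at both days (adjusted p = 0.0355 at day 28 and 0.0302 at day 56). Counting DESeq2, Ahr passed in only 2 of 18 alternative fits at day 28 and in 2 of 19 at day 56.

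Arnt, the shared partner of AHR and the hypoxia-inducible factors, did not pass the test at either day. It had 27.4, 18.3 and 19.1 CPM in normoxia, 26.8, 30.4 and 27.5 CPM at day 28, and 24.4, 26.1 and 23.9 CPM at day 56. Normoxia replicate 1 stood apart from its 2 group mates and overlapped both SuHx groups. Its log2 fold change was 0.38 (SE 0.18) at day 28 and 0.20 (SE 0.18) at day 56, adjusted p = 0.188 and 0.477 by edgeR's quasi-likelihood test. Without normoxia replicate 1, Arnt passed at both days (log2 fold change 0.62 and 0.42, adjusted p = 0.00313 and 0.0164 by edgeR). That fit called 45.2% of all tested genes at day 28 and 43.0% at day 56.

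Tiparp, the ADP-ribosyltransferase that dampens AHR, was highest at day 28. It had 17.03, 26.6 and 27.4 CPM in normoxia, 42.6, 37.4 and 43.9 CPM at day 28, and 40.7, 28.4 and 22.8 CPM at day 56. All day 28 libraries lay above all normoxia libraries, and the day 56 libraries overlapped both groups. Its log2 fold change was 0.80 (SE 0.25) at day 28 and 0.37 (SE 0.25) at day 56, adjusted p = 0.104 and 0.327 by edgeR's quasi-likelihood test, so neither passed in exon reads.

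Nqo1 encodes a quinone reductase that both AHR and NRF2 induce. It had 3.29, 3.75 and 6.10 CPM in normoxia, 19.998, 28.8 and 12.3 CPM at day 28, and 12.3, 16.8 and 11.6 CPM at day 56. Every SuHx library lay above every normoxia library. Nqo1 rose at day 56, by 1.64 log2 units (SE 0.35, adjusted p = 0.0289 by edgeR's quasi-likelihood test). At day 28 the log2 fold change was 2.23 (SE 0.35), with adjusted p = 0.0534. That comparison passed in 7 of 18 alternative fits, DESeq2, the fit without a filter and the fit on uniquely mapped reads among them. The last of these used the same Nqo1 reads, since all its exon reads were uniquely mapped. Nqo1 did not pass with only the 2 groups compared, or with the intron or globin share as a covariate. With 1 library left out it passed in 2 of 9 fits, with adjusted p up to 0.180.

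Cyp1a1, the classical AHR-induced P450 that oxidises aromatic hydrocarbons, was hardly read. It had 2, 0 and 0 exon reads in normoxia, 12, 7 and 1 at day 28, and 3, 2 and 5 at day 56. The ratio to normoxia was 6.15 at day 28 (exact 95% counting interval 1.49 to 54.3) and 4.14 at day 56 (0.882 to 38.9). Its relative Cyp1b1, which metabolises hydrocarbons and oestrogens, had 0, 1 and 0 exon reads in normoxia, 3, 3 and 2 at day 28, and 7, 0 and 2 at day 56. Its ratio was 4.92 at day 28 (0.660 to 218) and 7.45 at day 56 (1.03 to 327). Both genes fell below the filter on low counts and were not in the edgeR fit. Over the 6 SuHx against the 3 normoxia libraries, Cyp1a1 averaged 0.149 ± 0.0994 against 0.0278 ± 0.0481 CPM (SD) and Cyp1b1 0.0913 ± 0.0882 against 0.0123 ± 0.0212 CPM. The two-sided exact permutation p was 0.0476 and 0.0952, and 0.0952 for both after Benjamini-Hochberg adjustment over these 2 tests. A comparison of 3 against 3 libraries cannot go below 0.1.

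Cyp2s1 encodes a P450 that AHR ligands induce in mouse cells. It had 27.3, 25.5 and 21.8 CPM in normoxia, 38.3, 29.2 and 21.5 CPM at day 28, and 74.5, 42.4 and 45.4 CPM at day 56. The day 56 libraries lay above all others, and the other groups overlapped. Cyp2s1 rose at day 56 against normoxia, by 1.12 log2 units (SE 0.27, adjusted p = 0.0407 by edgeR's quasi-likelihood test). At day 28 against normoxia the log2 fold change was 0.25 (SE 0.27, adjusted p = 0.524), and its sign turned to -0.52 with the intron share and to -0.40 with the globin share as a covariate. For day 56 over day 28 it was 0.87 (SE 0.27, adjusted p = 0.132).

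Scin encodes scinderin, a calcium-dependent actin-severing protein, which AHR ligands induce in mouse cells. It had 6.41, 6.07 and 8.31 CPM in normoxia, 6.46, 16.0 and 5.79 CPM at day 28, and 18.2, 22.9 and 22.0 CPM at day 56. Day 28 replicate 2 stood near the day 56 libraries, and its 2 group mates were within the normoxia range or below it. Scin rose at day 56 against normoxia, by 1.60 log2 units (SE 0.37, adjusted p = 0.0362 by edgeR's quasi-likelihood test). At day 28 the log2 fold change was 0.45 (SE 0.36, adjusted p = 0.410), and -0.17 without day 28 replicate 2.

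Slc7a5 encodes the light chain of the LAT1 transporter, which carries tryptophan and kynurenine, a precursor and a ligand of the AHR pathway. It had 27.3, 23.0 and 24.1 CPM in normoxia, 21.8, 15.8 and 30.3 CPM at day 28, and 55.7, 39.9 and 53.3 CPM at day 56. The day 56 libraries lay above all others. Slc7a5 rose at day 56 against normoxia, by 1.00 log2 units (SE 0.24, adjusted p = 0.0407 by edgeR's quasi-likelihood test). For day 56 over day 28 the log2 fold change was 1.13 (SE 0.24, adjusted p = 0.0731), and for day 28 over normoxia it was -0.13 (SE 0.24, adjusted p = 0.715).

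Of the 10 genes, 8 passed the filter and were tested among 12447 genes. In exon reads at day 28, 1 of the 8 was called (Ahrr), where edgeR's quasi-likelihood test at an adjusted p of 0.05 called 0.129% of all tested genes. At day 56, 5 of the 8 were called, all higher (Ahrr, Nqo1, Cyp2s1, Scin and Slc7a5), where 7.12% of all tested genes were called and 3.42% were called higher. Between day 56 and day 28, 0 of the 8 were called, against 0.546% of all. DESeq2 called 3 of the 8 (Cyp2s1, Scin and Slc7a5), and its share over all genes is not given here. The same 3 genes had an unadjusted p under 0.05 by edgeR, against 18.5% of all at that unadjusted p. The median log2 fold change of the 8 was 0.49 at day 28 and 1.06 at day 56 against normoxia, beside -0.01 and -0.04 over all tested genes. The comparisons with normoxia share the 3 normoxia libraries. The 8 passed a filter that a gene can pass through its high group alone, so these counts are descriptions.

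The groups of CPM values did not overlap, with the SuHx group higher, for 4 of the 8 tested genes at day 28 (Ahr, Ahrr, Tiparp and Nqo1), against 11.4% of all tested genes. At day 56 this held for 6 of the 8 (Ahr, Ahrr, Nqo1, Cyp2s1, Scin and Slc7a5), against 15.6%. Cyp1a1 and Cyp1b1, below the filter, were not counted. At day 56 against day 28, Cyp2s1, Scin and Slc7a5 lay above without overlap, against 17.8% of tested genes, and Arnt lay below, against 17.4%. Arnt, Ahrr, Tiparp and Nqo1 had their highest mean CPM at day 28, and Cyp2s1, Scin and Slc7a5 at day 56.

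Nqo1, Cyp2s1, Scin and Slc7a5 lost their exon calls at day 56 when single libraries were left out. Without normoxia replicate 2, normoxia replicate 3, or any 1 of the 3 day 56 libraries, the count fell to 1, which was Ahrr each time. Adjusted p then lay between 0.0521 and 0.113 for Nqo1, 0.0846 and 0.145 for Cyp2s1, 0.0701 and 0.132 for Scin, and 0.0853 and 0.155 for Slc7a5. The share of all tested genes called in those fits is not given here. A loss particular to these genes thus cannot be told from fewer calls among all genes. Without day 28 replicate 1 the count was 3, with adjusted p = 0.0514 for Cyp2s1 and 0.0696 for Slc7a5. Cyp2s1 was also lost without day 28 replicate 2 (0.0597) and with only the 2 groups compared (0.0603). Without normoxia replicate 1 the count was 7, in the fit whose large share of called genes at day 56 is given above for Arnt. With the intron share of each library as a covariate it was 1 as well. The log2 fold changes with that covariate were 1.58 for Nqo1, 1.57 for Scin and 1.08 for Slc7a5, and for Cyp2s1 0.74, against 1.12 without it. With the globin share as a covariate Scin was lost (adjusted p = 0.0576). The column headers carry running sample codes. They are adjacent for normoxia replicate 1 and day 56 replicate 1, and again for normoxia and day 56 replicates 2 and 3. The day 28 libraries carry a later run of codes. Each run is called a series here, and no label or header says that the runs mark batches. The day 28 run cannot be told apart from day 28. Within both sets of codes, Ahr, Ahrr, Nqo1, Cyp2s1, Scin and Slc7a5 were higher at day 56 than in normoxia in every library. For Tiparp this held in the pair of replicate 1 only, with 40.7 CPM at day 56 against 17.03 CPM in normoxia.

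Intron reads come mostly from RNA that is not yet spliced, and were tested for the same genes as a separate class of reads. Of the 8 genes tested among 11713, 2 were called at day 28, both higher (Ahrr and Tiparp), where 1.59% of all tested genes were called. At day 56, 6 were called, all higher (Ahr, Ahrr, Tiparp, Cyp2s1, Scin and Slc7a5), where 15.6% of all were called and 8.16% were called higher. Between the days, day 56 over day 28, 1 was called (Cyp2s1), against 0.922% of all. The intron CPM of 6 genes lay above normoxia without overlap at day 28, against 12% of tested genes, and of 8 genes at day 56, against 20%.

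Tiparp introns rose at both days. They gave 21.5, 22.7 and 21.6 intron CPM in normoxia, 62.1, 67.8 and 66.8 at day 28, and 73.6, 49.6 and 28.9 at day 56. The day 28 libraries lay close together, and the day 56 libraries were spread over a wide range above normoxia. The log2 fold change was 1.58 at day 28 (SE 0.30, adjusted p = 0.0359 by edgeR's quasi-likelihood test) and 1.21 at day 56 (SE 0.30, adjusted p = 0.0227). The day 28 call ended without normoxia replicate 2 (adjusted p = 0.118), normoxia replicate 3 (0.108), day 28 replicate 1 (0.137), day 28 replicate 2 (0.124) or day 56 replicate 2 (0.0697). The day 56 call ended without normoxia replicate 2 (0.0591), normoxia replicate 3 (0.0694), day 56 replicate 1 (0.0778) or day 56 replicate 2 (0.0638), and within 1 series of sample codes (0.0608, log2 fold change 0.84).

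Ahr intron reads were 7.0009, 10.4 and 10.8 intron CPM in normoxia, 20.3, 20.8 and 11.4 at day 28, and 25.8, 17.9 and 16.7 at day 56. Every SuHx library lay above every normoxia library, day 28 replicate 3 only just. The receptor gene rose at day 56 in this read class, by 1.14 log2 units (SE 0.33, adjusted p = 0.0412 by edgeR's quasi-likelihood test). The call ended without any 1 of 7 libraries (all but day 28 replicates 2 and 3), with adjusted p of 0.0579 to 0.144. It also ended with the replicate block (0.0576) and within 1 series of sample codes, where the log2 fold change was 0.74 (0.0716).

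Cyp2s1 introns rose at day 56 against both other groups. They gave 102, 102 and 96.4 intron CPM in normoxia, 177, 114 and 70.1 at day 28, and 509, 295 and 299.9 at day 56. The day 56 libraries lay above all others, and day 28 lay on both sides of normoxia. The log2 fold change was 1.88 at day 56 over normoxia (SE 0.33, adjusted p = 0.00749 by edgeR's quasi-likelihood test), a call that held in all 15 alternatives. For day 56 over day 28 it was 1.61 (SE 0.32, adjusted p = 0.0468 by edgeR). The second call ended when normoxia replicate 3 (adjusted p = 0.0719), day 28 replicate 2 (0.145) or 3 (0.0574), or day 56 replicate 1 (0.180), 2 (0.121) or 3 (0.170) was left out, and on exon library sizes (0.205).

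Slc7a5 intron reads were 8.93, 11.5 and 10.8 intron CPM in normoxia, 37.3, 42.9 and 12.8 at day 28, and 42.5, 43.5 and 35.1 at day 56. At day 28, replicates 1 and 2 lay near the day 56 libraries and replicate 3 near normoxia. The log2 fold change was 1.97 at day 56 (SE 0.40, adjusted p = 0.0119 by edgeR's quasi-likelihood test), which held in all 15 alternatives. At day 28 it was 1.60 (SE 0.40, adjusted p = 0.0552), which passed in 5 of 14 alternatives.

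Scin intron reads were 4.59, 7.96 and 12.95 intron CPM in normoxia, 8.98, 18.6 and 6.16 at day 28, and 26.7, 24.9 and 33.8 at day 56. The order of the libraries was close to that in exon reads, with day 28 replicate 2 the highest of its group. Scin introns rose at day 56 (log2 fold change 1.84, SE 0.46, adjusted p = 0.0250 by edgeR's quasi-likelihood test). That call ended when normoxia replicate 2 was left out (adjusted p = 0.0699), and likewise for day 56 replicate 1 (0.0690), 2 (0.0598) and 3 (0.0797).

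Arnt intron reads averaged 34.0 ± 7.40 intron CPM in normoxia, 53.8 ± 11.6 at day 28 and 51.7 ± 2.90 at day 56 (SD, n = 3 each), and passed in neither comparison (adjusted p = 0.0879 at day 28 and 0.0827 at day 56 by edgeR's quasi-likelihood test). Nqo1 introns were short of reads, with 8, 1 and 0 in normoxia, 37, 63 and 14 at day 28, and 21, 13 and 16 at day 56. Their log2 fold change of 2.41 (SE 0.67) at day 28 and 1.73 (SE 0.70) at day 56 did not pass (adjusted p = 0.0660 and 0.114 by edgeR).

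**Figure D2:**
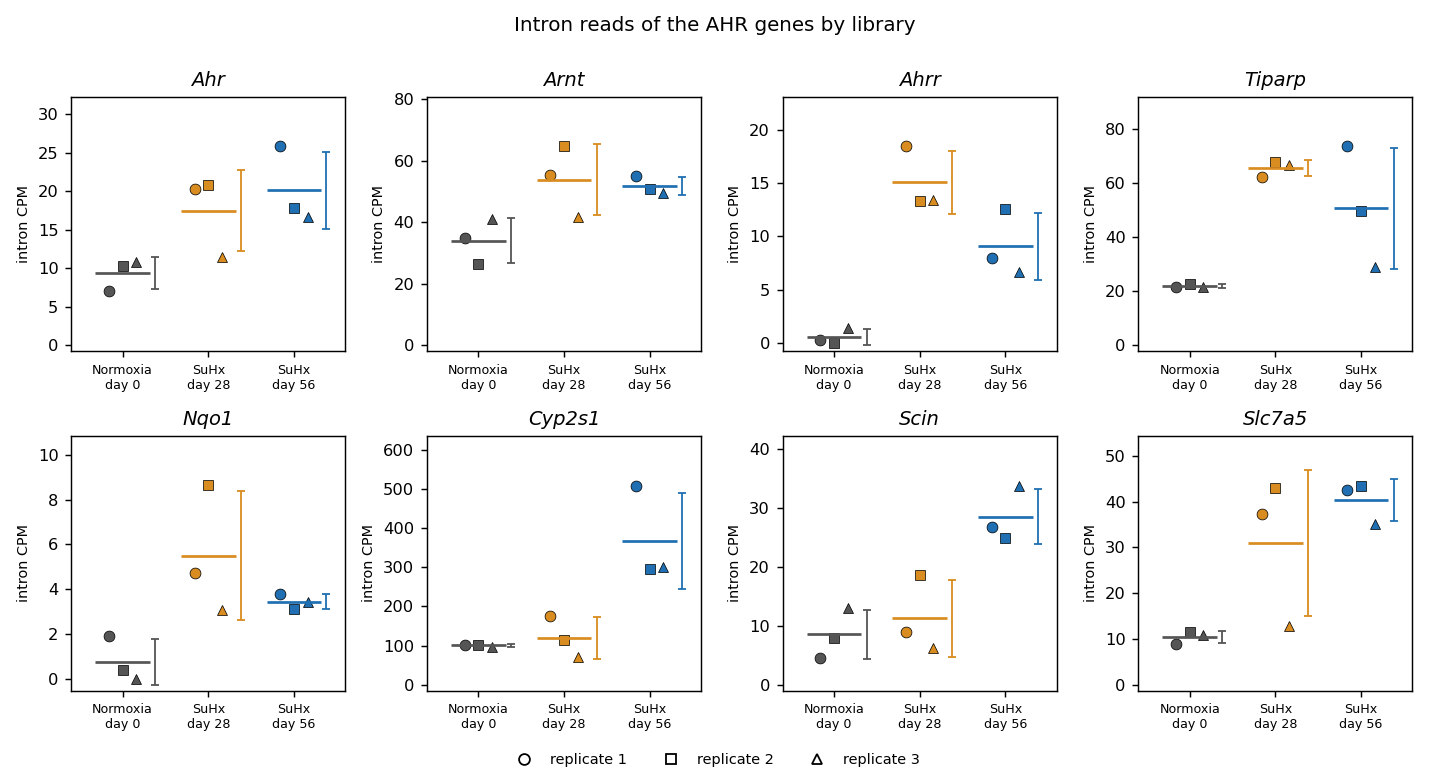
Intron CPM (y axis, TMM-scaled on intron reads) of the 8 tested AHR genes in each library, by group and day (x axis), with group means as lines and ± 1 SD (n = 3) as bars. Cyp2s1 at day 56 lies between 295 and 509 intron CPM, above all other libraries, and Tiparp at day 28 between 62.1 and 67.8.

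The change of exon reads was set against the change of intron reads of the same gene in the same libraries, as a test of the difference itself. At day 28, 0 of 8 genes were called by edgeR's quasi-likelihood test, where 2.3% of 10996 tested genes were called. The lowest adjusted p was 0.0957, for Ahrr, whose difference was positive and rested on 0 exon and 3 intron reads in normoxia. On the log2 scale of exon change minus intron change, Tiparp followed with -0.71 (SE 0.23, adjusted p = 0.107) and Slc7a5 with -1.71 (SE 0.58, adjusted p = 0.124). At an unadjusted p under 0.05 there were 3 (Ahrr, Tiparp and Slc7a5), against 22.8% of all. DESeq2 was not run on this difference.

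At day 56, 2 of 8 genes were called, where 15.2% of all were called. For Cyp2s1 the exon change was smaller than the intron change by 0.74 on the log2 scale (difference -0.74, SE 0.16, adjusted p = 0.0148 by edgeR). That call ended without day 56 replicate 1 (adjusted p = 0.0587), 2 (0.0605) or 3 (0.0521). For Ahrr the difference was positive (adjusted p = 0.0333), and it rested on 0 exon reads and 3 intron reads over the whole normoxia group. It ended without normoxia replicate 2 (adjusted p = 0.0520) or 3 (0.306), and without day 56 replicate 1 (0.0670), 2 (0.0706) or 3 (0.0633). The other 6 genes did not pass, with differences between -0.98 (Slc7a5) and 0.08 (Nqo1).

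**Figure D3:**
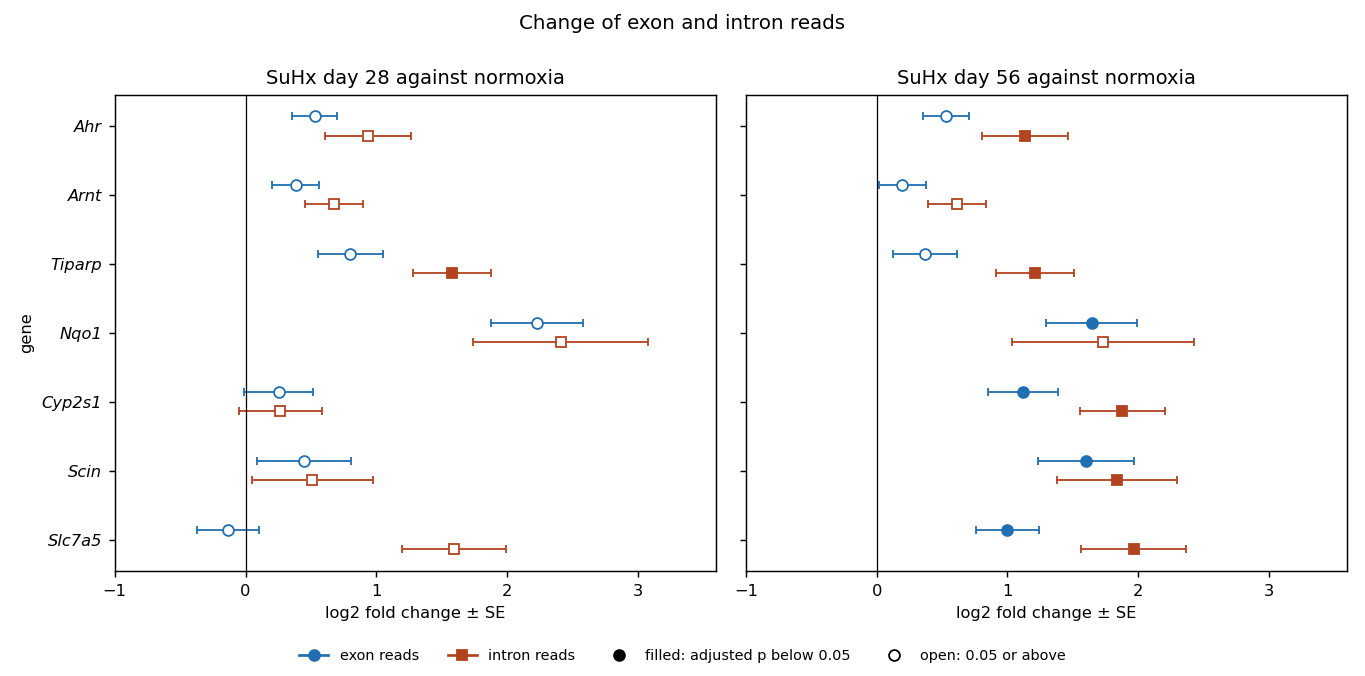
Log2 fold change against normoxia (x axis, ± SE) of exon reads (circles) and intron reads (squares) for 7 AHR genes (y axis), at day 28 (left) and day 56 (right). Filled symbols have an adjusted p below 0.05. Ahrr is not drawn because its normoxia libraries held no exon read. For Slc7a5 at day 28 the exon change is -0.13 and the intron change 1.60.

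The share of a gene's reads that lay in introns differed widely among the genes. In Cyp2s1 it was 39.2%, 26.9% and 28.5% in normoxia, 48.9%, 41.9% and 32.2% at day 28, and 58.5%, 54.7% and 50.9% at day 56. Every day 56 library was above all others. In Nqo1 the share did not exceed 9.20% in any library. In Slc7a5 it was 5.35%, 4.43% and 3.88% in normoxia, 26.2%, 33.4% and 5.77% at day 28, and 13.6%, 15.9% and 9.35% at day 56. Day 28 replicate 3, low for Slc7a5 and Ahr (10.1%), was also the day 28 library with the most globin reads (29.0%) and the lowest intron share over all genes (14.2%). In Ahrr the share was 36.9%, 35.1% and 35.7% at day 28 and 33.8%, 28.1% and 20.8% at day 56. The share over all genes together was 14.6%, 6.60% and 5.37% in normoxia, 24.9%, 21.4% and 14.2% at day 28, and 16.9%, 13.99% and 11.9% at day 56.

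**Figure D4:**
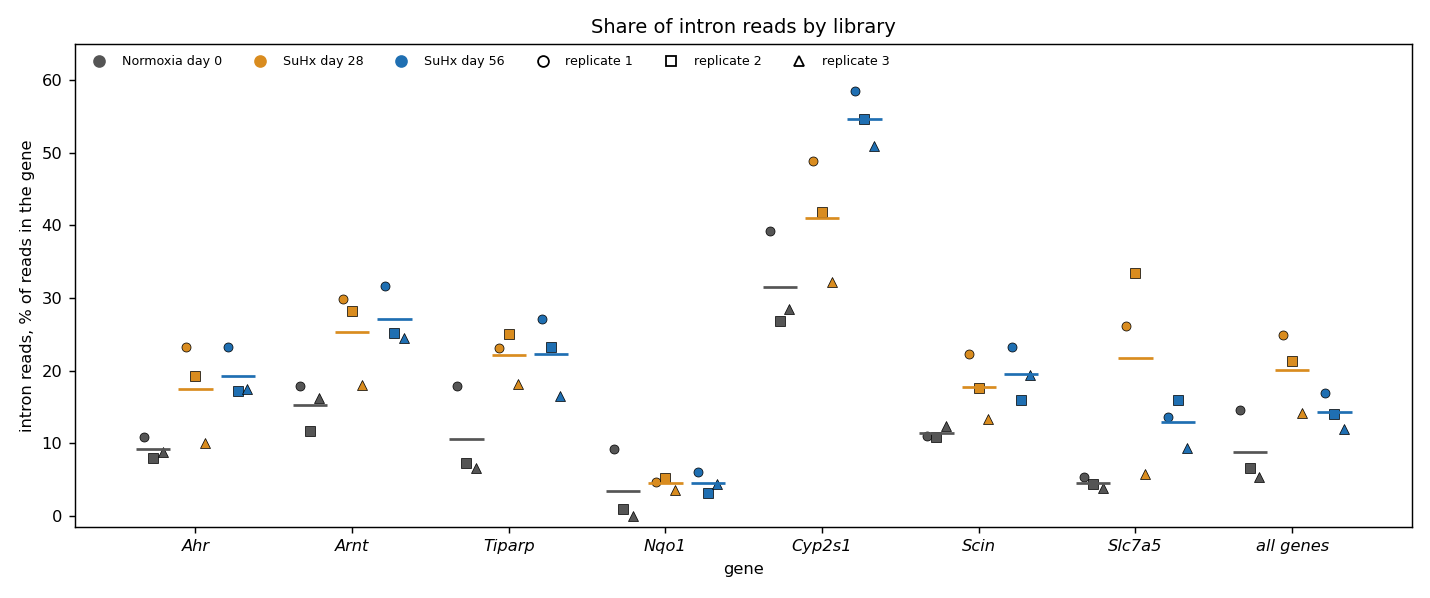
Intron reads as a percentage of all reads in the gene (y axis) for 7 AHR genes and for all genes together (x axis), per library, with group means as lines. Cyp2s1 at day 56 lies between 50.9% and 58.5%, and all genes together at day 56 between 11.9% and 16.9%.

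Per exon length, in the authors' RPKM, the genes fell into 3 tiers. In normoxia, Tiparp (6.16 ± 0.508), Cyp2s1 (6.10 ± 2.03), Arnt (5.81 ± 2.74) and Slc7a5 (4.61 ± 1.47) led, and their ranges overlapped from neighbour to neighbour. Scin (2.02 ± 0.352), Nqo1 (1.69 ± 0.283) and Ahr (1.27 ± 0.265) followed, again with overlapping neighbours and below the lowest Slc7a5 library (SD, n = 3 each). Cyp1a1 (0.00840 ± 0.0146) and Cyp1b1 (0.00133 ± 0.00230) were at the bottom with Ahrr, which was listed at 0.

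At day 28 the order was Tiparp (18.6 ± 1.79), Nqo1 (13.9 ± 6.36), Arnt (12.3 ± 1.56), Cyp2s1 (12.2 ± 4.43), Slc7a5 (6.82 ± 1.65), Scin (4.72 ± 3.04) and Ahr (3.08 ± 0.360), each neighbour overlapping the next. Ahrr (1.12 ± 0.443) lay below Ahr and above Cyp1a1 (0.0745 ± 0.0632) without overlap (RPKM, SD, n = 3 each). At day 56, Cyp2s1 had the highest mean (15.04 ± 4.91), without overlap with the next gene, Slc7a5 (10.48 ± 1.62), but its range (12.1 to 20.7) overlapped that of Tiparp (6.90 to 12.6). Tiparp (9.54 ± 2.90), Arnt (7.44 ± 0.546), Scin (7.16 ± 0.919) and Nqo1 (6.31 ± 1.48) overlapped from neighbour to neighbour. Ahr (2.13 ± 0.396), Ahrr (0.665 ± 0.205) and Cyp1a1 (0.0334 ± 0.0109) came below, each without overlap with the gene above it. Cyp1b1 (0.0145 ± 0.0181) overlapped Cyp1a1. RPKM are not corrected for the globin share, so these levels rank genes within a group and were not compared between groups.

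**Figure D5:**
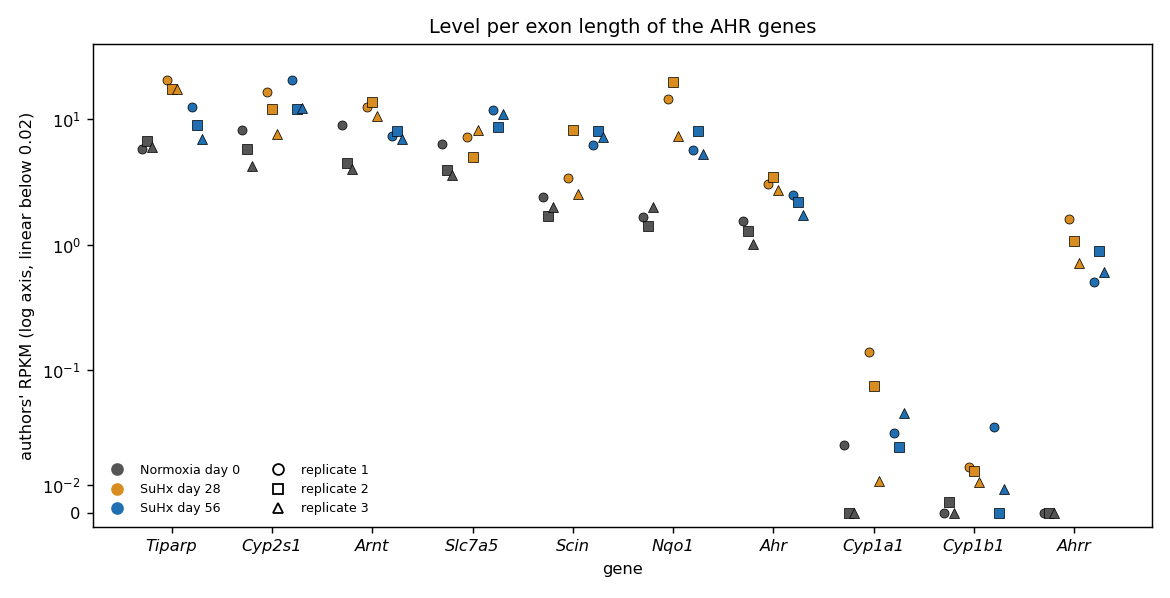
The authors' RPKM (y axis, log scale, linear below 0.02) of each AHR gene in each library (colours, groups; symbols, replicates), with genes ordered by their normoxia mean (x axis). Ahrr is at 0 in normoxia and between 0.5002 and 1.59 in the SuHx libraries.

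The genes around AHR were read as lists against the background of all tested genes, of which 0.129% were called at day 28 and 7.12% at day 56. In lists of this size, a count of 0 is near that background at both days, and a count of 1 is near it at day 56 only. Of the receptor's cytosolic complex and coactivators, 8 genes were tested and 0 were called at either day (edgeR, adjusted p under 0.05), with a median log2 fold change of 0.18 at day 28 and 0.29 at day 56. Of the other bHLH-PAS factors, 4 were tested and 0 were called, with medians of 0.20 at day 28 and 0.51 at day 56. Hif1a averaged 104.6 CPM at day 56 against 66.9 CPM in normoxia (log2 fold change 0.64, SE 0.19, adjusted p = 0.0657 by edgeR's quasi-likelihood test). Over all tested genes the medians were -0.01 and -0.04.

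Of 7 further AHR targets that could be tested, 1 was called at each day. It was Gpr15, a homing receptor that guides T cells to the colon. Gpr15 had 1.71, 1.66 and 2.01 CPM in normoxia, 10.2, 5.58 and 6.27 CPM at day 28, and 6.83, 8.28 and 6.47 CPM at day 56. Every SuHx library lay above every normoxia library. The log2 fold change was 2.04 at day 28 (SE 0.28, adjusted p = 0.0450 by edgeR's quasi-likelihood test) and 2.01 at day 56 (SE 0.28, adjusted p = 0.00709). The day 56 call held in all 19 alternatives. The day 28 call ended in 10 of 18 alternatives. It ended when normoxia replicate 2 (adjusted p = 0.147) or 3 (0.120), day 28 replicate 1 (0.112) or 2 (0.0510), or day 56 replicate 1 (0.113), 2 (0.110) or 3 (0.0978) was left out, with only the 2 groups compared (0.204), and with a covariate for intron share (0.893) or globin share (0.790). The log2 fold change was 1.72 with the first covariate and 1.57 with the second, the lowest of all alternatives. The medians of the 7 were 0.43 at day 28 and 0.29 at day 56.

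The enzymes that make kynurenine-type ligands from tryptophan gave 0 calls among 8 tested genes at either day, with medians of -0.05 at day 28 and 0.09 at day 56. Ido1 had no exon read in any library. Of NRF2 and its targets, 10 were tested, and the call at day 56 was Nqo1 itself, with no call at day 28. The medians were 0.45 at day 28 and -0.02 at day 56. Txnrd1, the thioredoxin reductase that NRF2 induces, averaged 54.0 CPM at day 28 against 24.3 CPM in normoxia (log2 fold change 1.15, SE 0.19, adjusted p = 0.0534 by edgeR). At day 28 the log2 fold change was positive for 9 of the 10 genes, and at day 56 for 4. Gclm went the other way at day 28, with 109.9 CPM in normoxia, 17.3 CPM at day 28 and 62.5 CPM at day 56, and was not called. Of 7 amino acid transport and ATF4 genes, 0 were called at either day, with medians of 0.05 at day 28 and 0.46 at day 56. Slc3a2, the heavy chain that anchors Slc7a5 in the membrane, averaged 124 CPM in normoxia, 56.9 CPM at day 28 and 85.4 CPM at day 56 (log2 fold change -1.12, SE 0.27, adjusted p = 0.0799 at day 28, and -0.54, SE 0.27, adjusted p = 0.200 at day 56, by edgeR).

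The genes most like a member were found by the mean absolute difference of log2 CPM over the 9 libraries, after centring each gene on its own mean. Nearest to Ahr were Mctp2 (0.07), Ubl3 (0.09), Slc25a30 (0.10) and Bmt2 (0.10), where Ahr itself ranged over 0.82 log2 units. Nearest to Nqo1 were Sowahc (0.21), Zfp36 (0.22) and Gjb2 (0.25). Zfp36, an mRNA decay factor, had 88.6, 126 and 130.1 CPM in normoxia, 511, 652 and 216 CPM at day 28, and 328, 400.0 and 379 CPM at day 56. Like Nqo1, it was highest in day 28 replicate 2 and lowest in normoxia.

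The genes nearest to Ahrr lay further off, and Ahrr itself ranged over 6.55 log2 units. They were Fam111a (0.66), Ptpn5 (0.95), Fosb (0.98) and Erp27 (1.03), in log2 units over 9 libraries. Fam111a, a protease-like restriction factor, had 1.42, 3.31 and 4.48 CPM in normoxia, 158, 125 and 246 CPM at day 28, and 116, 117 and 52.6 CPM at day 56. These levels are descriptions, since the genes were picked for this pattern.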

How the data were processed

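RNA sequencing of 9 PBMC libraries (3 groups of 3) was analysed from 1 deposited table. The submitters' processing notes name FastQC and the rn6 genome, and the aligner is not given in the sources used here. Per the file headers, the authors deposited counts of reads per gene (exon, uniquely mapped exon, total gene and junction reads) and RPKM, which are scaled by exon length and mapped reads. Some deposited columns are formally estimated counts, because broken lines hold a fraction there, but they were whole on every intact line and were not rounded. Intron reads were computed as total gene reads minus exon reads. Of 22085 lines, 8 broken lines were left out, and 81 further value columns of the same libraries (other read classes, ratios and transformed values) were not used. Library sizes are the column sums, and 3 reads correspond to 0.0762 to 0.195 CPM in a library.

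Counts were filtered with filterByExpr, scaled by TMM and tested with edgeR 4.0.16 (limma 3.58.1, R 4.3.3), by the quasi-likelihood test over all 9 libraries with group as the only term and Benjamini-Hochberg adjustment over all tested genes. Exon minus intron changes were tested as an interaction in 1 model over both read classes. Junction reads and RPKM were used as descriptions only. The scripts were tested on simulated data. Alternatives were RLE and upper-quartile factors, DESeq2 1.42.0, no filter, 2 groups only, a replicate block, uniquely mapped reads, covariates, exon library sizes for introns, and leaving out each library. A fit on 1 series of sample codes was added after seeing the data. No label says that replicate numbers pair the libraries. The 9 same-number correlations of deviations ranged over -0.146 to 0.167, with 3 over 0.1, and those of other pairs over -0.223 to 0.264. With 3 libraries a group, these values cannot decide whether the numbers pair libraries. No genome was used, and promoters came from RefSeq tables on GRCr8, read with Python 3.11.15 and pandas 2.3.3. Exact permutation tests used scipy 1.17.1. The members and lists were chosen with earlier results of these data known. Every member is named with its values, list genes by their calls, and other genes by likeness to Ahr, Ahrr and Nqo1. Some genes that the naming rule selects are not reported here. Hif1a, Ido1, Txnrd1, Gclm and Slc3a2 were named after their values were seen.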

Additional observations from a re-analysis of the deposited data

Results flagged for a closer look

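Cyp2s1 intron reads differed between the SuHx days by the test of that difference itself, with a log2 fold change of 1.61 for day 56 over day 28 (SE 0.32, adjusted p = 0.0468 by edgeR's quasi-likelihood test). All 3 day 56 libraries lay above all 3 day 28 libraries. The day 28 libraries also carry a run of sample codes of their own. No label or header says that this run marks a batch, and it cannot be told apart from the day.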

How the results depend on the processing

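The share of all tested genes called also differed between fits, as given above for Arnt. The shares of most fits below are not given here, so the counts are descriptions. A changed count cannot be read as particular to the AHR genes. At day 28 the exon reads of 1 AHR gene were called, and the count was 2 with upper-quartile factors, no filter, uniquely mapped reads or the replicate block, 4 with DESeq2, and 0 with only the 2 groups compared or with the intron or globin share as a covariate. At day 56 the exon count of 5 was 1 with the intron share. Between the days the exon count of 0 was 3 with DESeq2 and 1 with the replicate block. The intron count of 2 at day 28 was 5 with exon library sizes or DESeq2, and the count of 1 between the days was 0 with exon library sizes. No label says that the replicate numbers pair the libraries. With the replicate block the exon count at day 56 was 5, and the intron counts were 2 at day 28, 5 at day 56 (against 6, with Ahr lost) and 1 between the days. Leaving out 1 library gave exon counts of 1 to 5 at day 28, 1 to 7 at day 56 and 0 to 1 between the days, intron counts of 0 to 6, 3 to 6 and 0 to 1, and exon minus intron counts of 0 to 1 at day 28 and 0 to 3 at day 56. Changes of sign, on the log2 scale, were met by values that had passed no test. For day 56 over day 28, Ahr exons were 0.0002 and turned to -0.0033 (RLE), -0.0079 (DESeq2), -0.014 (no filter), -0.0056 (replicate block) and -0.043 (globin share), and Ahrr exons turned to 0.19 (intron share) and 0.42 (globin share). Against normoxia at day 28, Cyp2s1 exons turned to -0.52 (intron share) and -0.40 (globin share) and Slc7a5 exons to 0.034 and 0.21. Tiparp exons at day 56 turned to -0.059 within 1 series of sample codes. Without 1 library, values for day 56 over day 28 ranged over -0.13 to 0.12 for Ahr exons, -0.026 to 0.34 for Ahr introns, -0.44 to 0.054 for Ahrr exons and -0.22 to 0.090 for Arnt introns. At day 28 they ranged over -0.17 to 0.70 for Scin exons, -0.049 to 0.89 for Scin introns, -0.40 to 0.070 for Slc7a5 exons and -0.11 to 0.545 for Cyp2s1 introns. Exon minus intron values ranged over -0.067 to 0.20 (Cyp2s1), -2.21 to 0.51 (Nqo1) and -0.32 to 0.245 (Scin) at day 28, and -2.18 to 0.55 (Nqo1) and -0.48 to 0.070 (Scin) at day 56. The cause was not tested. Depth limits Cyp1a1, Cyp1b1 and the introns of Nqo1.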
